A study of Mus musculus with 4 samples.

Results

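Receptors for lipid mediators, prostaglandins, nucleotides and protons, together with orphan receptors named Gpr, were examined across 4 RNA-seq libraries of mouse T helper 17 (Th17) cells, CD4 T cells that secrete IL-17. Members were the protein-coding genes whose symbol starts with Gpr, S1pr, Lpar, P2ry, Ptger, Ptgdr, Ptgir, Ltb4r, Cysltr, Ffar or Hcar. Gpr65, S1pr1 and symbols starting with Gprc, Gprin or Gprasp were left out. This gave 108 genes of the 50600 in the files. The rule uses symbols and no levels, but it was set with earlier results of these data known. All 4 libraries are primary Th17 cells of strain C57BL/6NJ, per the labels, with biological replicate numbers 1 to 4, and the linked protocols cover differentiation of CD4 T cells and poly(A) RNA library construction. No genetic change or further treatment is labelled, sex was not collected and age is unknown. The libraries form a single group with no contrast. They share a donor label, and no label tells if each had an animal or culture of its own, so p-values measure only the spread between these samples, part of which may be technical.

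Most of these proteins are receptors of the cell surface that act through heterotrimeric G proteins. Receptors coupled to Gs raise cyclic AMP, those coupled to Gi lower it, and those coupled to Gq or to G12 and G13 act through calcium or the cytoskeleton. In T cells, lipid receptors guide migration and, through cyclic AMP, tune activation. Prostaglandin E2 acting on the receptors EP2 and EP4 is known to affect Th17 cytokine production. Several proteins with a Gpr symbol are not cell surface receptors but reside in the Golgi or in lysosomes.

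Library totals ranged from 28555677 to 58104663 counts. Levels are given in TPM, which divides counts by exon length and scales each library to the same sum, as mean ± SD with n = 4 unless single libraries are given. The label of the cells was borne out by all 6 T cell markers and all 5 Th17 markers, none of them under 1 TPM in any library, with Il17f at 11569 ± 117 TPM and Cd4 at 346 ± 16.1. Markers of other cell types were near 0, and none of the 26 genes of 7 lists reached that level. The macrophage list summed to between 0.986 and 1.28 TPM with Lyz2 and C1qa at 0, and the dendritic cell list to between 0.677 and 1.24. B cell, NK cell, neutrophil, and mast cell and eosinophil lists summed to at most 0.215, 0.130, 0.0677 and 0.21 TPM, and the 3 platelet genes had no count. The libraries also divided by Xist, the RNA of X chromosome inactivation, at 132, 131, 0.329 and 0.496 TPM in replicates 1 to 4, with the Y-linked Ddx3y at 0.428, 0.347, 58.9 and 57.3. Replicates 1 and 2 thus do not share a single animal with replicates 3 and 4, which goes against the shared donor label, and the spread over all 4 is not purely technical.

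Detection asked for at least 1 TPM in each of the 4 libraries. Of the 108 members, 33 were detected, or 30.6%, against 47% of all 21764 protein-coding genes. A further 38 members had no count in any library, which is 35.2% against 32.3% of protein-coding genes. The median of the members' mean levels was 0.0892 TPM, beside 0.575 for all protein-coding genes, and among detected genes the medians were 18.2 and 31.3 TPM. Thus fewer of these genes were above the threshold than among protein-coding genes as a whole, and those above it had a lower median level. Summed over members, the level was 808 ± 19.5 TPM. In bulk RNA, fewer cells with a transcript and less of it per cell cannot be told apart.

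**Figure D1:**
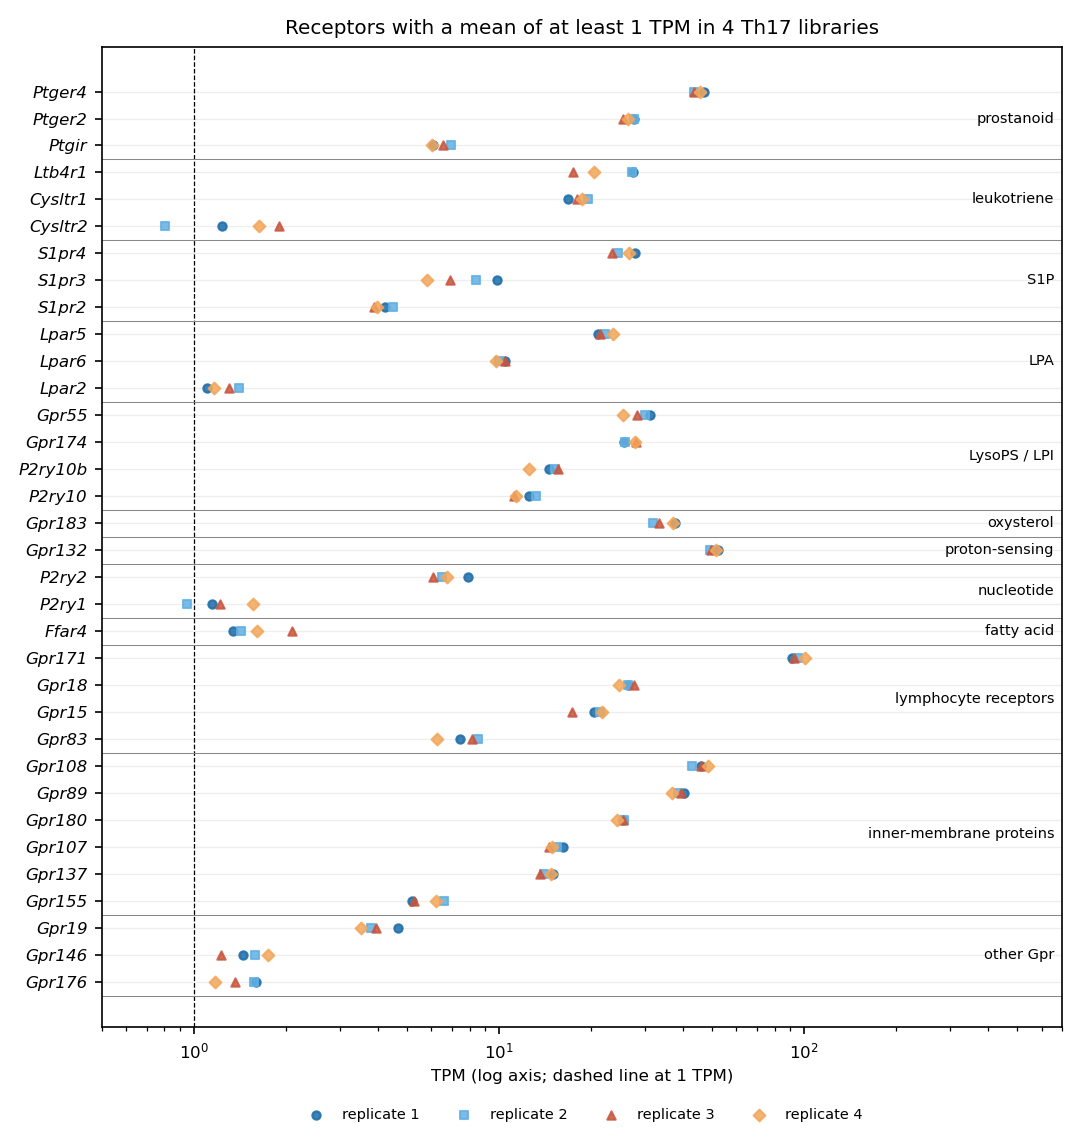
Level of 34 members with a mean of at least 1 TPM in each of the 4 Th17 libraries, on a log axis of TPM, ordered by the kind of ligand. Each marker is a library. Gpr171 lies between 91.3 and 101 TPM, and Cysltr2 and P2ry1 cross the dashed line at 1 TPM in replicate 2.

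Prostanoid receptors were represented by both cyclic AMP-raising receptors for prostaglandin E2 and by the prostacyclin receptor, 3 of 7 genes. Ptger4, which encodes EP4, was at 46.9, 43.6, 43.4 and 45.7 TPM in replicates 1 to 4, and Ptger2, which encodes EP2, at 27.7, 27.7, 25.4 and 26.5. The lowest library of Ptger4 lay above the highest of Ptger2. Ptgir, the prostacyclin receptor, was at 6.39 ± 0.425 TPM. Ptger3, the Gi-coupled receptor for prostaglandin E2, was at 0.141 ± 0.0183 TPM. Ptger1, which encodes EP1, had 1, 2, 4 and 30 counts, so that most of its counts were in replicate 4. The prostaglandin D2 receptors were not seen: Ptgdr had no count in any library, which allows up to 0.11 TPM in replicate 1, and Ptgdr2, known as a Th2 receptor, had 1 count in all.

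Genes that make or remove prostanoids were mostly low, with 4 of 13 detected. Ptges3, a cytosolic prostaglandin E synthase that is also an HSP90 cochaperone, was at 301 ± 14.8 TPM, and Abcc4, a transporter that exports prostaglandins, at 35.1 ± 1.23. Ptgs1, which encodes the constitutive cyclooxygenase, was at 6.58, 5.23, 3.80 and 3.58 TPM in replicates 1 to 4.

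Leukotriene receptors split into a high and a low gene for each ligand class. Ltb4r1 encodes BLT1, the high-affinity receptor for leukotriene B4, a chemoattractant. It was at 27.5, 27.3, 17.4 and 20.5 TPM in replicates 1 to 4, while Ltb4r2, the low-affinity receptor, had 2, 0, 6 and 2 counts. Cysltr1, the receptor for cysteinyl leukotrienes such as leukotriene D4, was at 18.2 ± 1.15 TPM. Cysltr2 was at 1.24, 0.802, 1.90 and 1.63 TPM and so was just outside the threshold. Of 6 genes for leukotriene synthesis only Lta4h, the hydrolase that makes leukotriene B4, was detected, at 72 ± 2.19 TPM. Alox15, a lipoxygenase, was next at 0.444 ± 0.182.

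Receptors for sphingosine 1-phosphate, the lipid that draws lymphocytes out of lymphoid organs, were detected in 3 of 4 genes. S1pr4, a receptor of lymphoid and other blood cells, was at 27.9, 24.6, 23.4 and 26.6 TPM in replicates 1 to 4. S1pr3 was at 9.83, 8.38, 6.93 and 5.81 TPM, and S1pr2, which inhibits migration through G12 and G13, at 4.15 ± 0.27. The libraries of S1pr4 all lay above those of S1pr3, and those of S1pr3 all above those of S1pr2. S1pr5, a receptor of NK cells, had no count, which allows up to 0.141 TPM in replicate 1. Genes that make, export or remove this lipid were detected in 4 of 7 cases, led by the degrading enzymes Sgpp1 (56 ± 1.61 TPM) and Sgpl1 (44.9 ± 1.39).

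Of 6 receptors for lysophosphatidic acid, 3 were detected. Lpar5, of the P2Y-like branch, was at 21.04, 22.2, 21.4 and 23.6 TPM in replicates 1 to 4, and Lpar6 of the same branch was at 10.2 ± 0.333. Lpar2 was just inside the threshold at 1.24 ± 0.137. Lpar1 and Lpar4 had 1 and 6 counts in all and Lpar3 had none.

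Receptors for lysophosphatidylserine and lysophosphatidylinositol were detected in 4 of 5 genes and summed to 82.6 ± 3.55 TPM, beside 78.4 ± 2.18 for the prostanoid receptors, with sums of single libraries that overlapped. Gpr55, a receptor for lysophosphatidylinositol, was at 31.3, 30.2, 28.3 and 25.4 TPM in replicates 1 to 4. Gpr174, a Gs-coupled receptor for lysophosphatidylserine, was at 25.8, 25.8, 28.1 and 27.9. The ranges of these 2 genes overlapped. P2ry10b was at 14.5 ± 1.37 TPM and its relative P2ry10, another lysophosphatidylserine receptor, at 12.1 ± 0.953. Gpr34, a lysophosphatidylserine receptor known from myeloid cells, was at 0.785, 0.302, 0.164 and 0.148 TPM. Of 9 genes that make or remove lysophospholipids, 5 were detected, led by Abhd12, a lysophosphatidylserine lipase (45.9 ± 1.8 TPM), and Abhd16a, which makes lysophosphatidylserine (18.1 ± 0.987).

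The oxysterol receptor Gpr183, known as EBI2, positions lymphocytes along gradients of dihydroxylated cholesterol. It was at 37.7, 31.9, 33.4 and 37.2 TPM in replicates 1 to 4. None of the 4 genes for making or removing its ligand was detected. Ch25h, which adds a hydroxyl group to cholesterol, was at 0.955, 1.47, 1.57 and 1.72 TPM, under the threshold in replicate 1 alone, and Hsd3b7, which degrades the ligand, was at 0.535 ± 0.169.

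Proton-sensing receptors respond to acid extracellular pH. Gpr132, assigned to this family and also reported to respond to oxidised fatty acids, was at 52.3, 49.1, 49.4 and 51.5 TPM in replicates 1 to 4, with little spread. Gpr4, of the same family, had 3 counts in all.

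Receptors of lymphocytes with peptide ligands or with ligands still debated were detected in 4 of 6 genes. Gpr171, reported as a receptor for a neuropeptide, was at 91.3, 95.7, 92.8 and 101 TPM in replicates 1 to 4 and ranked 2126 among the 10223 detected protein-coding genes. Gpr18 was at 26.4, 26.4, 27.7 and 24.8 TPM. Gpr15, which directs T cells to the large intestine, was at 20.2 ± 2.01, and Gpr83, known from regulatory T cells, at 7.59 ± 0.982. Gpr25 had 8, 6, 2 and 3 counts and Gpr35 had 3 counts in all.

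Nucleotide and fatty acid receptors were low. P2ry2, a receptor for ATP and UTP, was the only detected member of 7 nucleotide receptors, at 7.94, 6.51, 6.07 and 6.75 TPM in replicates 1 to 4. P2ry1, a receptor for ADP, was just outside the threshold at 1.15, 0.947, 1.21 and 1.57 TPM. P2ry6, a receptor for UDP, was at 0.345 ± 0.173, and P2ry12, known from platelets and microglia, at 0.212 ± 0.119. Ffar4, a receptor for long-chain fatty acids, was the only detected member of 8 fatty acid and hydroxy acid receptors, at 1.35, 1.43, 2.09 and 1.61 TPM. The short-chain fatty acid receptors Ffar2 and Ffar3 and the hydroxy acid receptors Hcar1 and Hcar2 had no count, with upper limits in replicate 1 of 0.126, 0.19, 0.107 and 0.182 TPM.

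Proteins of inner membranes that carry a Gpr symbol were detected in 6 of 9 genes. Gpr108, a Golgi protein, was at 45.9, 42.9, 45.8 and 48.2 TPM in replicates 1 to 4, and Gpr89, which encodes an anion channel that sets Golgi pH, at 40.4, 38.6, 39.6 and 36.8. Gpr180 was at 25.2 ± 0.56 TPM, Gpr107, a relative of Gpr108, at 15.3 ± 0.719, Gpr137, a lysosomal protein, at 14.4 ± 0.641 and Gpr155, a lysosomal cholesterol sensor, at 5.82 ± 0.707. The lists were made with earlier results of these data known, so the members left over cannot serve as a contrast to them. Of the 48 members in none of these lists, most of them orphan receptors, 3 were detected and 26 had no count. Gpr19 led them at 4.65, 3.80, 3.94 and 3.52 TPM, and Gpr146 (1.5 ± 0.217) and Gpr176 (1.43 ± 0.2) were just above the threshold.

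Each list of signalling partners of these receptors had detected genes, where 47% of all protein-coding genes were detected. Most lists of any genes would then hold some, so this is not particular to these partners. Of 13 G protein alpha subunits, 8 were detected, led by the Gi subunits Gnai2 (414 ± 9.09 TPM) and Gnai3 (276 ± 8.27). Beta subunits were detected in 4 of 5 cases, led by Gnb1 (416 ± 6.32) and Gnb2 (325 ± 10.8). Of 8 receptor kinases and arrestins, which end receptor signalling, 6 were detected, led by Grk2 (303 ± 5.69) and Grk6 (235 ± 3.6). RGS proteins, which speed the turning off of G proteins, were detected in 8 of 12 cases, led by Rgs16 (229 ± 7.81) and Rgs10 (166 ± 3.36). Of 19 adenylyl cyclases and cyclic AMP phosphodiesterases, 8 were detected, led by Pde7a (62.5 ± 1.56) and Adcy7 (52.9 ± 1.48).

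Related receptors were then compared within each library as a log2 ratio of TPM with 0.1 added to both. Of 13 pairs, 12 could be compared, since Ptgdr2 and Ptgdr were both at or under 3 counts. In all 12 the 4 libraries pointed the same way. An exact sign-flip test, two-sided over 16 patterns, gave p = 0.125 for each, and the same after Benjamini-Hochberg adjustment. With 4 libraries p cannot be smaller, so no pair could pass a threshold of 0.05.

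Ptger4 exceeded Ptger2 by a log2 ratio of 0.74 ± 0.06 (SD, n = 4). Gpr183 exceeded Gpr18 by 0.41 ± 0.16 and S1pr4 exceeded S1pr2 by 2.60 ± 0.13. P2ry10 lay below P2ry10b at -0.26 ± 0.15, with single libraries from -0.14 to -0.48. These 2 genes share 2.05% and 1.79% of their 100-base windows with another gene, and fragments that mapped to several places were left uncounted. Lpar6 lay below Lpar5 at -1.11 ± 0.12 and Gpr108 above Gpr107 at 1.57 ± 0.11, but both orders rest on length: as CPM, which is not scaled by length, they turned to 0.71 and -1.03.

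Pairs with a gene near 0 had wide ratios. The log2 ratio was 6.79 ± 0.99 for Ltb4r1 over Ltb4r2, 6.11 ± 0.90 for Gpr174 over Gpr34, 5.52 ± 0.92 for Gpr15 over Gpr25 and 3.68 ± 0.55 for Cysltr1 over Cysltr2. These values depend on the 0.1 added. Pooled over the 4 libraries and scaled by length, Ltb4r1 exceeded Ltb4r2 159-fold (exact 95% interval 86.4 to 333), Gpr174 exceeded Gpr34 91.6-fold (64.5 to 135) and Gpr15 exceeded Gpr25 56.5-fold (36.0 to 94.1). P2ry14 and P2ry12 were both near 0, with 10 and 29 counts, and a log2 ratio of -1.34 ± 0.69. The intervals cover counting error only.

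**Figure D2:**
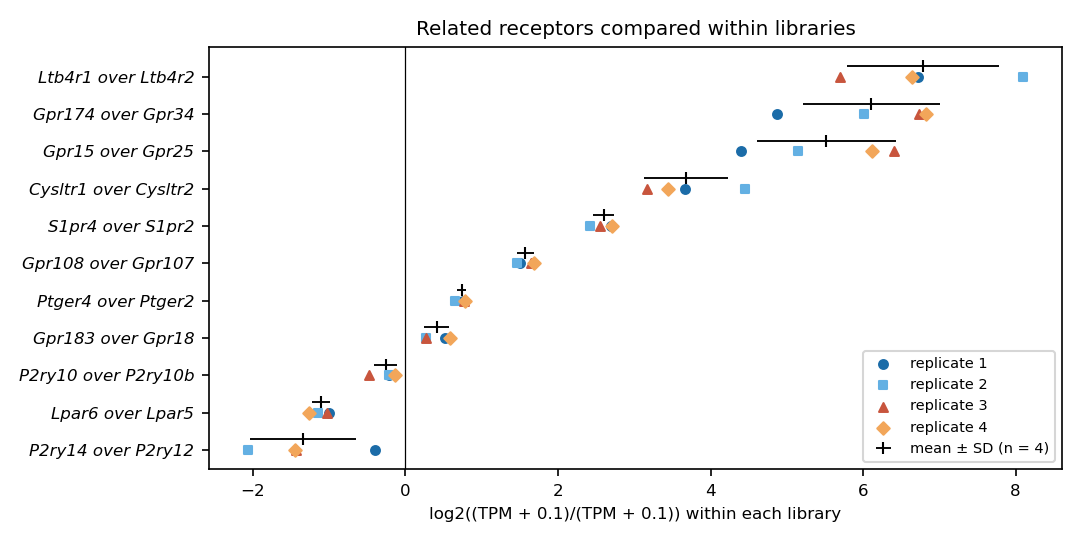
Log2 ratio of TPM, with 0.1 added, for 11 pairs of related receptors. Coloured markers are the 4 libraries, and black bars give mean ± SD (n = 4). The pairs with a gene near 0 counts spread widest, while Ptger4 over Ptger2 stays at 0.74 ± 0.06.

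Some members sit beside each other in the genome. With starts at most 250 kb apart, 29 members formed 11 clusters, and 7 clusters held both detected and undetected genes. Of these 29 members 11 were detected, beside 33 of all 108 members. How many mixed clusters such shares alone would give was not computed, so the 7 are not a result about neighbours. Coordinates here are of mm10. In the cluster of chromosome 3 from 59096448 to 59262871, all on the minus strand, Gpr171 was at 95.1 ± 4.24 TPM. Its neighbours P2ry14, P2ry13 and P2ry12 had 10, 0 and 29 counts over the 4 libraries together, against 10605 for Gpr171. Gpr171 and P2ry12 lie within the gene Med12l, which is on the other strand and was at 0.464 ± 0.0706 TPM.

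On chromosome X from 106920625 to 107296769, P2ry10, P2ry10b and Gpr174 were detected in a row while Lpar4 was not. With Cysltr1 they were the only 4 detected of 14 members on that chromosome. On chromosome 14, Ltb4r2 and Ltb4r1 lie within 7.07 kb, from 55761428 to 55768494 on the plus strand, with 10 and 1544 counts. Gpr18 and Gpr183 lie within 53.8 kb of the same chromosome, from 121911435 to 121965193, and both were detected. They lie inside Ubac2, which is on the other strand and at 60.5 ± 3.33 TPM. Ptger2 (44988195 to 45003820, plus strand) was at 26.8 ± 1.08 TPM with its neighbour Ptgdr (44851235 to 44859375, minus strand) at 0 counts. Counting by strand keeps genes on opposite strands apart.

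**Figure D3:**
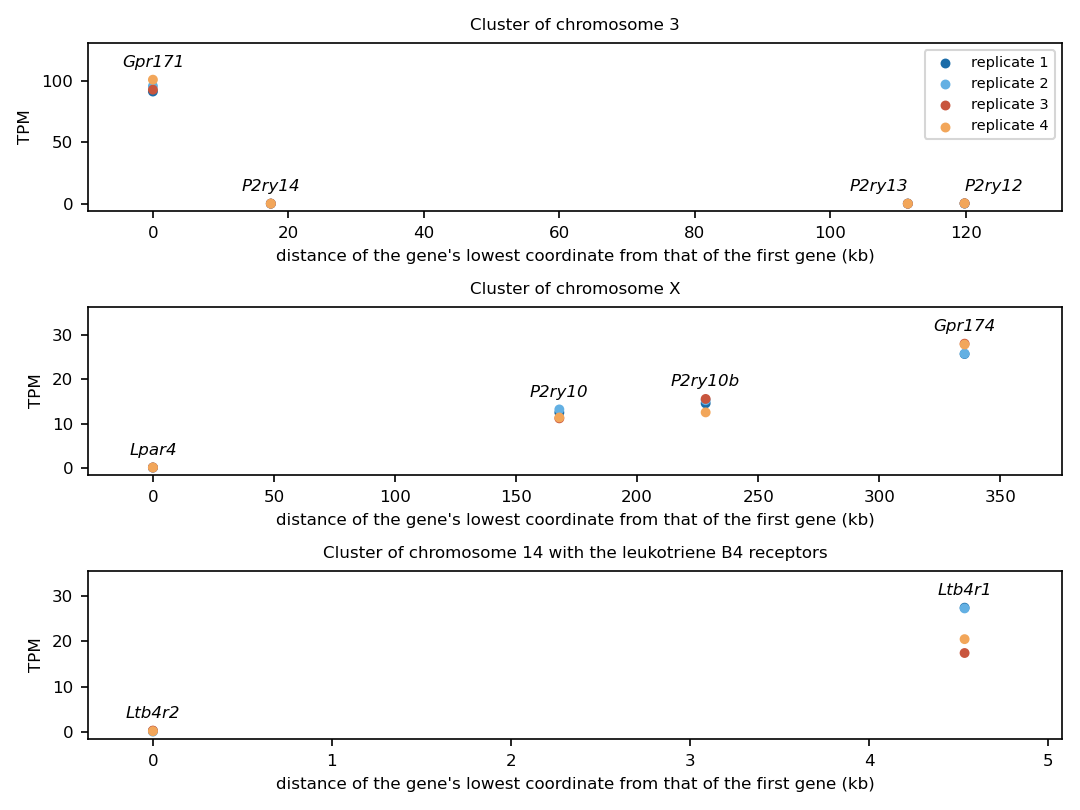
TPM of neighbouring members in 3 clusters against distance in kb, with a marker for each of the 4 libraries. Gpr171 is near 100 TPM beside P2ry14, P2ry13 and P2ry12 near 0, 3 of 4 genes of the X cluster are between 11 and 29 TPM, and Ltb4r1 lies above Ltb4r2 in each library.

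Sequence just before the start of 82 members was taken from RefSeq on GRCm38.p6, 250 bases each, and 30 of these members were detected. They were searched on both strands for TGANTCA, for AGGTCA, bound by nuclear receptors, and for TGTGGT, bound by RUNX factors. TGANTCA, with any base at N, is looser than the site of AP-1 factors including BATF, which has C or G there. TGANTCA was found in 4 of 30 detected members, 3 of 52 undetected members and 6.87% of all 27025 genes of the table. AGGTCA was found in 7, 5 and 13.8%, and TGTGGT in 7, 9 and 14.2%. A match is only a run of letters. Of the matches to TGANTCA printed here, only that of P2ry10b, TGACTCA, has C or G at N. The motifs do not overlap each other in the sequences printed here, and in Gpr15 the 2 matches to TGTGGT adjoin. Printed below are P2ry10 and P2ry10b, neighbours detected at similar levels and each with TGANTCA and AGGTCA, Gpr15, with TGANTCA and TGTGGT, and Ltb4r1 and S1pr3, the members later called different between libraries by a test that allows for replicate spread. Each reads 5′ to 3′ on the strand of its gene, with motif matches of either strand in capitals. The regions are chrX:107088242-107088491, chrX:107148677-107148926, chr16:58718873-58719122 (minus strand), chr14:55765712-55765961 and chr13:51408368-51408617.
P2ry10: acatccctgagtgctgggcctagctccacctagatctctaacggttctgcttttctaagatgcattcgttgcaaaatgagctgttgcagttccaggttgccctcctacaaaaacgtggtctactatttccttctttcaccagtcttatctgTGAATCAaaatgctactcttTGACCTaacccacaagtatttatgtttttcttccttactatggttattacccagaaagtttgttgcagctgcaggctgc
P2ry10b: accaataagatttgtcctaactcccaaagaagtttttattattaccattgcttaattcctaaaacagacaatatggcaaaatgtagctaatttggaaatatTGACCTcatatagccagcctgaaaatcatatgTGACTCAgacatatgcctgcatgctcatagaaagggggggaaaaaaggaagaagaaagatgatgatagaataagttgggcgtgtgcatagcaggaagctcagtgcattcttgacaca
Gpr15: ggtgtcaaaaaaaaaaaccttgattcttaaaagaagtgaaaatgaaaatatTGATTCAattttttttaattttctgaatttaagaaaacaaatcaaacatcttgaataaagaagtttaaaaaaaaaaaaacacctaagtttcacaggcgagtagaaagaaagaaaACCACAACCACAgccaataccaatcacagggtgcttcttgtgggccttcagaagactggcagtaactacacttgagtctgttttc
Ltb4r1: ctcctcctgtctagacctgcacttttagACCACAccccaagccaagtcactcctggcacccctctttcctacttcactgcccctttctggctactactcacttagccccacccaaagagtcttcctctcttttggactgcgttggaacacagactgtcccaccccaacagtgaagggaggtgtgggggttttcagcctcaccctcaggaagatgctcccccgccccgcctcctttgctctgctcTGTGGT
S1pr3: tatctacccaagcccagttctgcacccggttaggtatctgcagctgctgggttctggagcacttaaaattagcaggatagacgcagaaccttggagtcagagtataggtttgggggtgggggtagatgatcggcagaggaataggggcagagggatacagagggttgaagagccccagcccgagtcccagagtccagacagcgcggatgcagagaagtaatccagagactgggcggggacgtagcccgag

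Of these, Ltb4r1 holds TGTGGT at 2 places and S1pr3 none of the motifs. GC content was 37.6% in P2ry10b and 31.6% in Gpr15, beside 56.8% in Ltb4r1 and 56.4% in S1pr3, and its median was 56.6% in detected and 55.6% in undetected members.

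Levels were close between the 4 libraries. The coefficient of variation (SD over mean) of the 22 members at 10 TPM or more had a median of 4.73%, beside 3.54% for all protein-coding genes detected at that level, and ranged from 2.22% for Gpr180 to 21.7% for Ltb4r1. Differences between libraries were tested on counts across 12434 genes that passed edgeR's filter on low counts, which with a single group asks for the level in every library. Of the members, 41 passed. A gene was called by a negative binomial deviance at edgeR's trended dispersion, which allows for spread between replicates, with Benjamini-Hochberg adjusted p under 0.05. This called 2 of the 41 members, Ltb4r1 and S1pr3, against 0.523% of all genes tested. A Poisson deviance, which allows for counting noise alone, with a highest to lowest ratio of at least 2, called 1, Cysltr2, against 1.74%.

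Ltb4r1 was high in replicates 1 and 2 and low in replicates 3 and 4, with a highest to lowest ratio of 1.56 and an adjusted p of 0.022 by edgeR's negative binomial deviance. Without replicate 1, 2 or 3 the call was lost, at adjusted p = 0.159, 0.176 and 0.999851, and it held without replicate 4 (0.0261). The adjusted p of this test ranged from 0.0144 to 0.999967 over all alternatives, the highest with DESeq2 dispersions, which called 0 of all 12434 genes. The same replicates 1 and 2 were those with high Xist. They were also higher in Itgax, a dendritic cell gene (0.878, 0.977, 0.464 and 0.434 TPM). The summed dendritic cell list was higher there too (0.977, 1.24, 0.677 and 0.735), but was mostly Itgax, and 0 of its 4 genes were detected. Its other genes, Xcr1, Zbtb46 and Flt3, had means of 0.0808, 0.0701 and 0.0691 TPM and did not share this division. The part of such cells, or of the division by Xist, in the level of Ltb4r1 was not tested. With 2 libraries on each side, the division by Xist cannot be told apart from any other difference between them. Members on chromosome X did not pass the test: Gpr174, Cysltr1, P2ry10 and P2ry10b each had an adjusted p of 0.999974.

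S1pr3 was highest in replicate 1 at 9.83 TPM and lowest in replicate 4 at 5.81, a ratio of 1.66 with an adjusted p of 0.0174 by the same test. With 8.38 TPM in replicate 2 and 6.93 in replicate 3, it too was higher in both replicates with high Xist. The call was lost without replicate 1 (0.784) or replicate 4 (0.914). The adjusted p ranged from 0.0115 to 0.999967 over the alternatives, the highest again with DESeq2 dispersions. Csf1r, a macrophage receptor, had the same order of libraries at 0.839, 0.702, 0.492 and 0.285 TPM. The summed macrophage list did not, at 1.28, 0.986, 1.09 and 1.04 TPM, with 0 of 5 genes detected. Nor did its other genes with counts. Cd14 was at 0.373, 0.172, 0.582 and 0.590 TPM, and Adgre1 at 0.0722, 0.111, 0.0176 and 0.167. Itgax and the dendritic cell list, given above, were highest in replicate 2. The part of such cells, or of the division by Xist, in the level of S1pr3 was not tested.

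Cysltr2 was lowest in replicate 2 and highest in replicate 3, a ratio of 2.34, with a Poisson adjusted p of 0.0223, but the negative binomial test of edgeR gave 0.999974. Its Poisson call was lost without replicate 2 (0.352) or replicate 3 (0.122). It rests on 16 to 60 counts per library. The lists of synthesis, removal and signalling genes held 1 gene called by the negative binomial test, against 0.523% of all genes tested. Those for synthesis and removal had 6, 1, 5, 6 and 2 genes tested, and those for signalling 9, 4, 6, 8 and 11. The called gene was Ptgs1, of the prostanoid list with 6 tested, with a ratio of 1.81 and an adjusted p of 0.019. It was highest in replicates 1 and 2, as were Xist and Itgax, whose part in this was not tested, and the call was lost without replicate 1 (0.99998), replicate 3 (0.0898) or replicate 4 (0.162). The adjusted p of Ptgs1 ranged from 0.013 to 0.99998 over the alternatives.

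**Figure D4:**
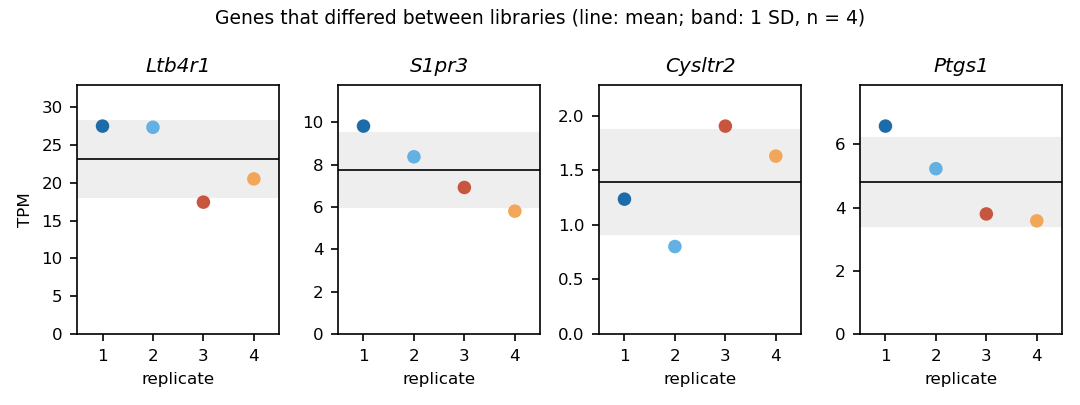
TPM of Ltb4r1, S1pr3, Cysltr2 and Ptgs1 in the 4 Th17 libraries, with the mean as a line and 1 SD (n = 4) as a band. Ltb4r1, S1pr3 and Ptgs1 are higher in replicates 1 and 2 than in 3 and 4, and Cysltr2 is the reverse.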

How the data were processed

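RNA was sequenced from 4 libraries of mouse Th17 cells. Per the file headers, the authors deposited raw counts, in which featureCounts 1.4.6-p4 assigned fragments to genes, from paired, reverse-stranded reads (strand option 2) with both ends mapped and GENCODE M13 gene models, without options for multi-mapping fragments or fragments overlapping several genes. The labels name the mm10 build, and the output name in the headers carries "star2" and 48 hours, which the labels do not repeat. Symbols and biotypes came from GENCODE M21 by gene ID without version (50376 of 50600 genes matched, 84 of 108 members also in version).

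TPM was computed from counts and exon lengths in Python 3.11.15 with pandas 2.3.3. Totals were 28555677, 36998648, 58104663 and 42896684 counts in replicates 1 to 4. A count of 0 allows up to 3 counts. Such limits and intervals cover counting error only, and intervals are exact binomial at 95%, with scipy 1.17.1. Variation between libraries was tested in R 4.3.3 after TMM scaling by edgeR 4.0.16, on 3 degrees of freedom, and checked on simulated counts. DESeq2 1.42.0 gave alternative size factors and dispersions. Named were all detected members, with single libraries for the 12 highest and the highest of each list, members called variable or paired, undetected members at 0.1 TPM or more, and 2 genes of each other list. Naming undetected members with few or no counts was decided after their values were seen, as were the neighbour clusters, promoters and motifs. Some genes are not reported here, though counts and sums over members include them. Members and lists were chosen with earlier results of these data known.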

Additional observations from a re-analysis of the deposited data

Results flagged for a closer look

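Each of 51 members with a mean of at least 0.1 TPM was screened for a library whose gap to the nearest other library, as a share of the range over all 4, exceeded Dixon's critical value at 95%. Chance gives this in about 1 of 20 genes, and 2 members met it. Ptger1 was at 0.425 TPM in replicate 4 against 0.0215 to 0.0419 in the others, or 30 counts against 1 to 4. Gpr180 was at 24.4 TPM in replicate 4 against 25.4 to 25.6, a small gap in a gene whose libraries were otherwise nearly equal.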

How the results depend on the processing

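No paired analysis was possible because all libraries belong to the same group. The count of 33 detected members stayed within 1.5 times under thresholds of 0.5 and 5 TPM, 1 CPM, a TPM sum over protein-coding genes, and each replicate left out. Of 84 alternative ratios of pairs, 82 kept their direction. A changed constant or a replicate left out could not reverse a pair, since its 4 libraries all pointed the same way. Only CPM could do so, and it reversed 2 of 12 pairs, Lpar6 over Lpar5 (0.71) and Gpr108 over Gpr107 (-1.03). The Poisson test, which called 1 member, called 3 of 41 with a ratio of 1.5 (3.92% of all genes tested), 0 with a ratio of 3 (0 at an unadjusted p under 0.05), 17 of 41 with no ratio (36.6%), 5 of 70 with no filter on low counts (4.92%) and 0 to 1 with a replicate left out (0 without replicate 2, 0 unadjusted, and 0 without replicate 3, 1 unadjusted). The negative binomial test, which called 2, called 0 with a ratio of 2 (1 unadjusted) and 0 with a ratio of 3 (0 unadjusted). With no filter it called 1 of 70 (0.506% of all genes tested), Ptger1, which the filter had left out (adjusted p = 0.0209). With DESeq2 dispersions it called 0 members (0 unadjusted), but also 0 of all 12434 genes tested. Those dispersions are fitted to each gene from the same 4 counts and take in the spread being tested, so this setting cannot decide. With a replicate left out the test called 0 to 1 (0 without replicate 1, 4 unadjusted). With no filter Ltb4r1 and S1pr3 fell to adjusted p = 0.0647 and 0.0512. DESeq2 size factors, and a fit without X and Y genes, left both counts as they were. Of 33 levels, 30 moved by less than their SD with a protein-coding sum. All 33 did so with any replicate left out, but this was fixed in advance. Leaving out 1 of 4 libraries cannot move a mean by as much as the SD. Depth limits members under about 0.1 TPM, where a count of 0 cannot be told from a low level.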

Other observations

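Some low receptors known from myeloid cells, chosen after their values were seen, had the same order of libraries in TPM as Csf1r. The macrophage genes Cd14 and Adgre1 did not share this order, and the part of other cells in it was not tested. Gpr34 had 14, 7, 6 and 4 counts in replicates 1 to 4 and P2ry6, a UDP receptor, 14, 12, 14 and 6 counts, or 0.568, 0.375, 0.277 and 0.161 TPM. Gpr84, a receptor for medium-chain fatty acids of myeloid cells, did not have the order of Csf1r, with 1, 5, 2 and 6 counts. Gpr162 (0.936 ± 0.216 TPM) and Gpr157 (0.726 ± 0.0278) were the next members under the threshold after Cysltr2 and P2ry1.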
